A study of Danio rerio with 3 samples.

Results

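shox2 and shox are the zebrafish members of the short stature homeobox family, and they were followed here through every cell class of a single-cell RNA sequencing series of the developing inner ear and the tissue around it. The members were the rows of the count tables whose symbol was shox2 (ENSDARG00000075713) or shox (ENSDARG00000025891), 1 row each, which are 2 of the 25109 gene rows. Each library was a pool of embryos of 1 genotype, labelled at about 22 hours post fertilization (hpf): shox2Δ/Δ mutant, shox2Δ/+ heterozygote and wild type (shox2+/+), with 1 library for each genotype. The study's methods name several stages up to that one, so the pools can mix stages. The Δ allele is a CRISPR deletion at the start of the gene. By the study's methods the mutant embryos were the GFP-negative offspring of an incross of fish carrying a shox2 Gal4 allele, the Δ allele and UAS:GFP, whereas the wild-type embryos carried both the neurog1:DsRed and the neurod1:EGFP transgenes. The cross and the transgenes of the heterozygote library were not given in the sources used here, so its EGFP counts can stand for either construct. Genotype, cross and library therefore cannot be told apart, no test between genotypes was made, and the intervals given are 95% intervals of counting error only.

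Both genes encode transcription factors with a paired-class homeodomain. In human, loss of SHOX causes short stature. The mouse has no Shox gene, and mouse Shox2 acts in the pacemaker region of the heart, in the proximal limb, in touch-sensing neurons of the sensory ganglia and in rhythm-generating interneurons of the spinal cord. The cranial sensory ganglia beside the ear of the zebrafish arise from placodes, among them the otic placode, whose neuroblasts leave the otic epithelium while they switch on neurod1. These ganglia are the setting in which shox2 is read below.

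Cells were kept if they had 500 genes or more, fewer than 6500, and less than 5% of their unique molecular identifiers (UMIs, one per captured RNA molecule) from mitochondrial genes, which left 6672 mutant, 8233 heterozygote and 8548 wild-type cells with 131099920, 157573577 and 176280326 UMIs. Some cell barcodes occurred in more than 1 library: the mutant and the wild-type library shared 2083, the heterozygote and the wild-type library 1089, and the mutant and the heterozygote library 1497. In most of them the barcode was far shallower in one library than in the other. Kept cells whose barcode held at least 10 times the UMIs in another library numbered 575 in the mutant, 278 in the heterozygote and 94 in the wild-type library. These shallow copies held 2 of the 131 shox2 UMIs of the mutant library and none of the members' other UMIs, so that values of shox2 and shox were nearly the same with and without them. They did hold 145 of the 478 EGFP UMIs and 62 of the 72 DsRed UMIs of the mutant library.

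Both genes were rare. shox2 had 131 UMIs in the mutant, 713 in the heterozygote and 388 in the wild-type library, and shox had 169, 152 and 254. Scaled to 1000000 UMIs of all kept cells (counts per 1000000, CPM), shox2 was at 0.999 (0.835 to 1.19) in the mutant, 4.52 (4.199 to 4.87) in the heterozygote and 2.20 (1.99 to 2.43) in the wild-type library. The order was heterozygote, wild type, mutant, with no overlap of the intervals. The mutant over wild type log2 ratio was -1.14 (-1.44 to -0.85), that of heterozygote over wild type was 1.04 (0.86 to 1.22), and that of mutant over heterozygote was -2.18 (-2.46 to -1.91), where 0.917% of 16463 genes were at least 2-fold lower. Without the shallow copies the first of these was -1.15. Of 16521 genes with at least 50 UMIs over the mutant and wild-type libraries, 4.55% were at least 2-fold lower in the mutant library, as shox2 was. Of 16633 genes in the heterozygote and wild-type libraries, 9.95% were at least 2-fold higher in the heterozygote. The libraries were read from the 3′ ends of transcripts, which lie outside the deleted stretch, so a shox2 UMI in the mutant library does not show an intact transcript and the level does not check the genotype label.

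shox, the paralog that carries no deletion, differed less. It was at 1.29 CPM (1.102 to 1.499) in the mutant, 0.965 (0.817 to 1.13) in the heterozygote and 1.44 (1.27 to 1.63) in the wild-type library. The intervals of the mutant library overlapped with those of both others. The mutant over wild type log2 ratio was -0.16 (-0.45 to 0.13), that of heterozygote over wild type was -0.58 (-0.88 to -0.28), and that of mutant over heterozygote was 0.42 (0.09 to 0.74). A cell rarely held more than a few molecules: the highest count was 15 shox2 and 27 shox UMIs in the mutant, 23 and 29 in the heterozygote, and 31 and 27 in the wild-type library.

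The cells of all libraries were grouped into 40 clusters without the use of either gene, and 28 clusters took one of 23 class names from lists of marker genes. A name with "-like" stands for such a class. Some unnamed clusters were nearly absent from a library. Clusters 7 and 8 held 1060 and 983 wild-type cells, against 6 and 24 mutant and 11 and 24 heterozygote cells. Clusters 1, 13 and 18 held 493, 332 and 284 mutant and 766, 470 and 355 heterozygote cells, against 14, 12 and 8 wild-type cells. Levels over all cells therefore compare unlike mixes of cells. Most shox2 of the mutant and wild-type libraries lay in 4 neuron classes (cranial sensory neuron-like, neuron-like, inhibitory neuron-like and cranial motor neuron-like cells), with 114 of 131 UMIs (87.0%) in the mutant and 335 of 388 (86.3%) in the wild-type library. In the heterozygote library the same classes held 290 of 713 UMIs (40.7%). shox was concentrated in the neuron classes in each library, with 152 of 169 UMIs (89.9%) in the mutant, 134 of 152 (88.2%) in the heterozygote and 236 of 254 (92.9%) in the wild-type library. The plot of both genes by class shows this spread.

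**Figure D1:**
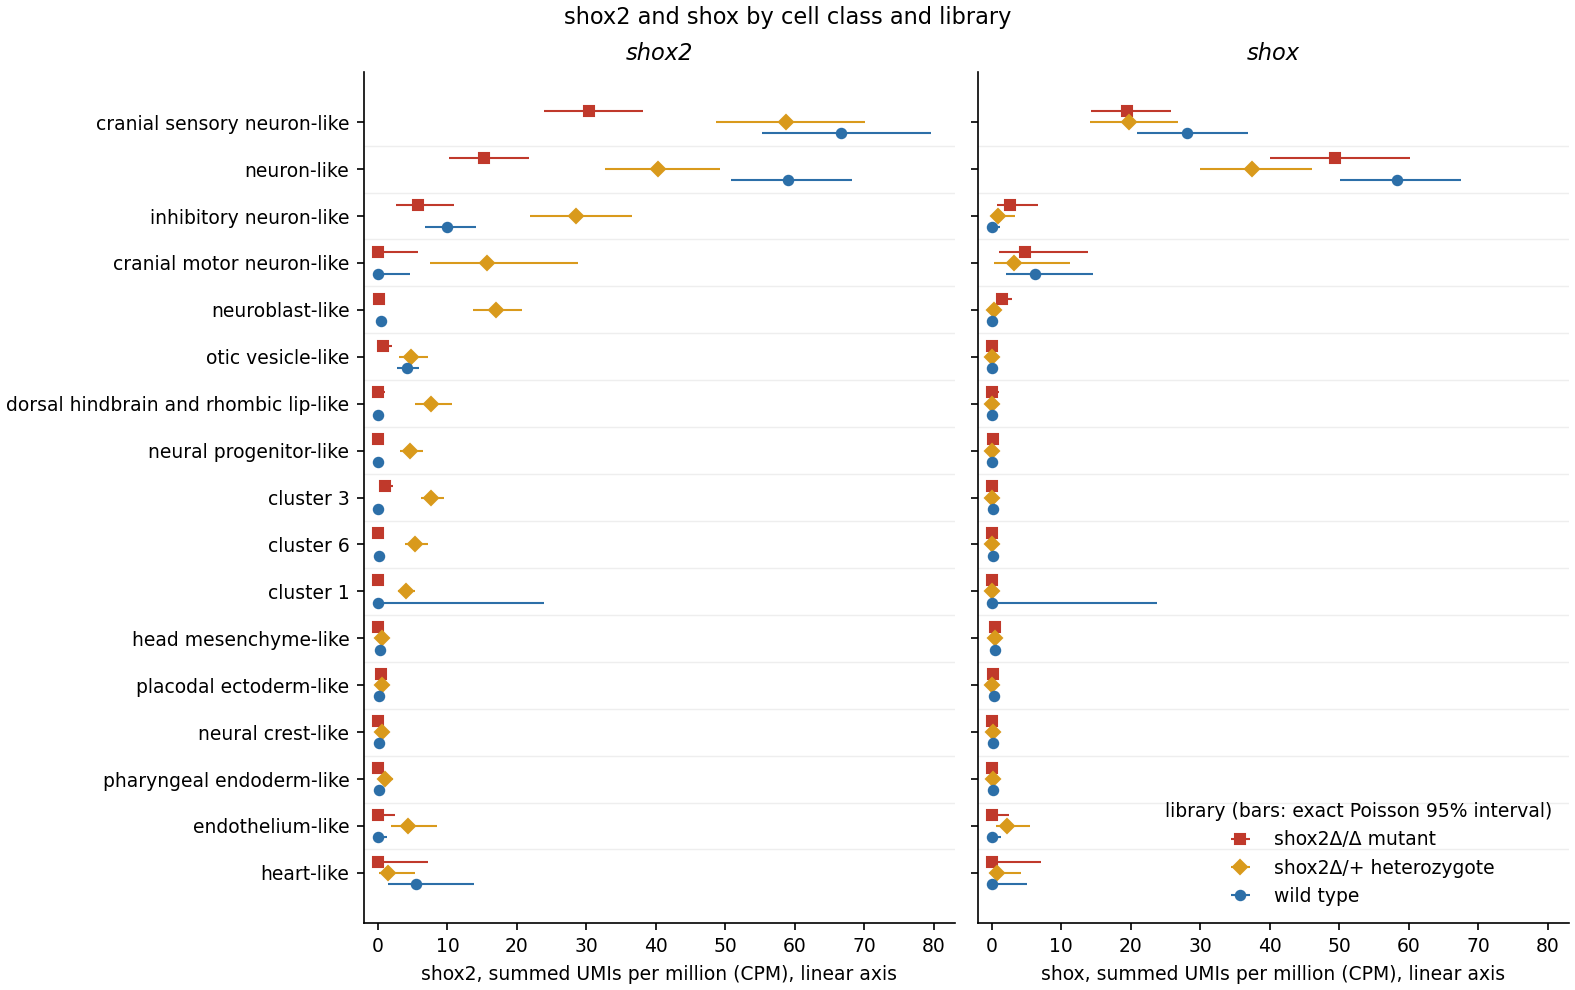
Summed UMIs of shox2 (left) and shox (right) in 17 cell classes or clusters (rows), as CPM, with 1 point per library and exact Poisson 95% intervals on a linear axis. Both genes peak in cranial sensory neuron-like and neuron-like cells; shox2 is above 4 CPM in the heterozygote library in classes where the mutant and wild-type libraries lie near 0, such as neuroblast-like cells.

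Cranial sensory neuron-like cells were led by chga, neurod1, isl2b, tlx2 and p2rx3a, and 15 of the 18 markers on their list were raised. They held the highest level of shox2 of any named class in the mutant and wild-type libraries. shox2 had 75 UMIs in 109 mutant cells, 122 in 89 heterozygote cells and 121 in 88 wild-type cells. The levels were 30.4 CPM (23.9 to 38.1) in the mutant, 58.7 (48.7 to 70.0) in the heterozygote and 66.6 (55.2 to 79.5) in the wild-type library. Mutant cells stood below both others, and the heterozygote and wild-type intervals overlapped. The log2 ratio was -1.13 (-1.57 to -0.70) for mutant over wild type and -0.18 (-0.56 to 0.19) for heterozygote over wild type. The ratio differed between clusterings that put other numbers of cells in the class. Clusterings at Leiden resolution 2 and with no regression put 383 and 379 cells in the class and gave -0.56 and -0.55 for mutant over wild type. For heterozygote over wild type they gave 0.38 (0.04 to 0.73) and 0.40 (0.05 to 0.75). These are of opposite sign to -0.18, and their intervals exclude 0, so the order of heterozygote and wild type here depends on the clustering. A clustering without the heterozygote library put 269 cells there, where 197 were before, and gave -0.59. At resolution 0.5, with 286 cells, mutant over wild type was -1.13, and without the 8% of cells of highest doublet score, with 254 cells, it was -1.32. Among 6149 genes compared between the mutant and wild-type cells of this class, 2.26% were at least 2-fold lower in the mutant. A shox2 UMI was seen in 37 of 109 mutant cells (33.9%), 39 of 89 heterozygote cells (43.8%) and 47 of 88 wild-type cells (53.4%), and without the shallow copies in 38.5%, 45.9% and 54.7%. The cells with shox2 in the mutant library mostly held a single UMI (24 of 37 cells), against 14 of 39 in the heterozygote and 15 of 47 in the wild-type library.

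Shares of cells depend on depth, so each cell was also thinned to 3000 UMIs. A shox2 UMI was then left in 7 of 91 mutant (7.69%, 3.15 to 15.2), 9 of 83 heterozygote (10.8%, 5.08 to 19.6) and 17 of 83 wild-type cells (20.5%, 12.4 to 30.8) of the class, with exact binomial (Clopper-Pearson) intervals that overlap. Thinned to 5000 UMIs instead, the shares were 15 of 90 mutant (16.7%), 20 of 81 heterozygote (24.7%) and 20 of 81 wild-type cells (24.7%), so that the gap between heterozygote and wild type at 3000 UMIs was not seen. At 3000 UMIs there were 18 mutant, 6 heterozygote and 5 wild-type cells too shallow to thin. In endothelium-like cells, which were taken as a class that should lack the gene, thinning left 0 of 80 mutant, 0 of 89 heterozygote and 0 of 131 wild-type cells, which allows shares of up to 3.75%, 3.37% and 2.29% of cells with a UMI at this depth (3 counts of the total; the exact upper limits are 4.51%, 4.06% and 2.78%). Unthinned, 0 of 113, 4 of 105 and 0 of 142 held a UMI, at median depths of 8458, 17629 and 18022 UMIs, against 20315, 19200 and 18216.5 UMIs in cranial sensory neuron-like cells.

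shox in cranial sensory neuron-like cells lay lower and closer together. It was at 19.5 CPM (14.3 to 25.8) in the mutant, 19.7 (14.1 to 26.7) in the heterozygote and 28.1 (20.9 to 36.9) in the wild-type library, from 48, 41 and 51 UMIs. All the intervals overlap, and the mutant over wild type log2 ratio was -0.53 (-1.13 to 0.07). With the libraries scaled by the median ratio over genes instead, it was -0.62 (-1.22 to -0.02), which excludes 0. The share of cells with a shox UMI was 22.9%, 21.3% and 21.6%. In the 3 wider classes this ratio was 0.21 to 0.25.

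Neuron-like cells, a cluster led by crhbp, npb, islr2 and pou4f2 with all 13 markers of its list raised, held the other large share. Here shox2 was at 15.3 CPM (10.3 to 21.8) in the mutant, 40.3 (32.7 to 49.2) in the heterozygote and 59.0 (50.7 to 68.2) in the wild-type library, from 30, 96 and 182 UMIs. No intervals overlap, and the log2 ratio was -1.95 (-2.56 to -1.39) for mutant over wild type and -0.55 (-0.92 to -0.18) for heterozygote over wild type. The UMIs came from few cells: 5 of 72 mutant, 15 of 107 heterozygote and 18 of 162 wild-type cells, with 2, 6 and 14 cells holding at least 5 UMIs. The 5 highest cells held all 30 UMIs of the mutant, 74 of 96 of the heterozygote and 96 of 182 of the wild-type library. The mutant level thus rests on 5 cells, and cells are not replicates. With the 8% of cells of highest doublet score left out, the clustering put 557 cells in the class instead of 341 and gave -0.05 for heterozygote over wild type.

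shox in neuron-like cells was at its highest of any named class, with 49.4 CPM (40.03 to 60.2) in the mutant, 37.4 (30.0 to 46.0) in the heterozygote and 58.3 (50.1 to 67.5) in the wild-type library. It came from 6 of 72 mutant, 10 of 107 heterozygote and 20 of 162 wild-type cells. The mutant over wild type log2 ratio was -0.24 (-0.61 to 0.12), and that of heterozygote over wild type was -0.64 (-1.03 to -0.27). Set beside -1.95 for shox2 in the same cells, the mutant level of shox had an interval that overlaps the wild type. That of shox2 did not. These intervals do not cover the spread between cells. Thinned to 3000 UMIs, a shox2 UMI was left in 4.17% (0.868 to 11.7) of mutant and 6.17% (3.00 to 11.1) of wild-type cells. These intervals overlap, also with that of the heterozygote library, 7.48% (3.28 to 14.2). With the libraries scaled by the median ratio over genes instead, mutant over wild type for shox was -0.39 (-0.76 to -0.02).

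The members shared cells. Of the 38 neuron-like cells with shox2, 24 (63.2%) also held shox, which is 66.7% of the 36 cells with shox. By library, 4 of 5 mutant, 7 of 15 heterozygote and 13 of 18 wild-type cells with shox2 held shox, and cells with at least 5 UMIs of both numbered 2, 4 and 10. In neuron-like cells with a shox2 UMI, shox was at 690 CPM in the mutant, 256 in the heterozygote and 360 in the wild-type library, against 5.98, 1.95 and 8.68 CPM in the neuron-like cells without. It was the gene with the largest ratio between these sets of cells, 63.2-fold over the libraries pooled. In cranial sensory neuron-like cells, 49 cells held both, which is 39.8% of the 123 cells with shox2 and 77.8% of the 63 with shox. Over all cells the overlap was 74 cells, which is 13.4% of the 551 cells with shox2 and 48.4% of the 153 with shox. The plot of both counts per cell shows the cells with many of both.

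**Figure D2:**
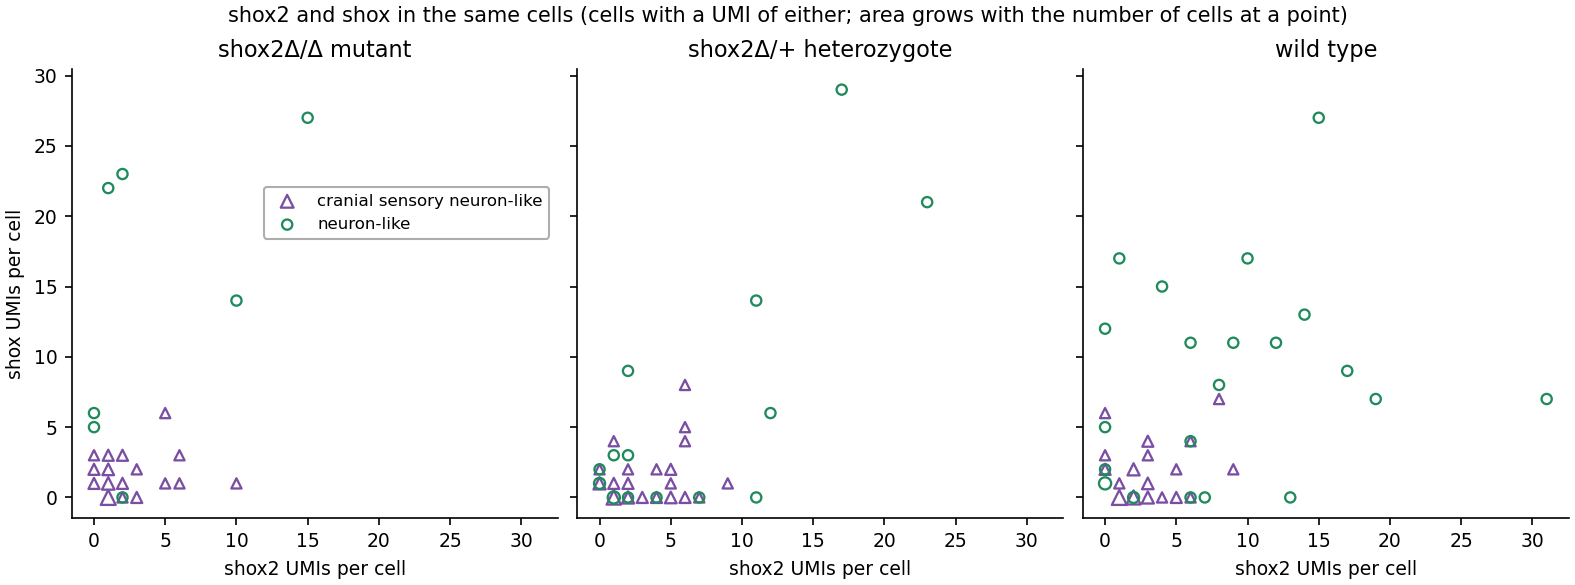
shox2 UMIs (horizontal) against shox UMIs (vertical) per cell in the mutant, heterozygote and wild-type libraries, for cranial sensory neuron-like (triangles) and neuron-like cells (circles) with a UMI of either gene. Neuron-like cells reach 31 shox2 and 29 shox UMIs and often hold both, whereas cranial sensory neuron-like cells stay at or below 10 shox2 and 8 shox UMIs.

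In neuron-like cells, other transcription factors stood beside the pair. These genes were chosen after their values were seen. The shares of cells given for them are unthinned and depend on depth, and the depths of the cells with and without shox2 are not given here. lmx1bb, a LIM homeobox gene of hindbrain and spinal neurons, was at 1164 CPM in mutant, 533 in heterozygote and 939 in wild-type cells with shox2, against 167, 133 and 103 CPM in those without. It was found in 27 of the 38 cells with shox2 (71.1%) and in 19.5% of the others. lbx1a, which marks dorsal neuron classes, was found in 60.5% of the cells with shox2 and 16.5% of the others, and pou4f2, a POU-domain factor of sensory neurons, in 78.9% and 32.7%. phox2a, a factor of visceral and noradrenergic neurons, was found in 71.1% and 18.8%, but its level in wild-type cells was 131 CPM with and 135 CPM without shox2. drgx was found in 55.3% and 14.5%. Its level in mutant, heterozygote and wild-type cells was 1043, 241 and 218 CPM with shox2, against 337, 289 and 158 CPM without. tlx3b was found in 21.1% and 6.27%. It was at 0, 21.1 and 27.5 CPM with shox2, against 12.5, 6.35 and 18.1 CPM without. Around shox itself, lmx1bb, phox2a and lbx1a were among the 10 genes with the largest ratio, and pou4f2 was not. lmx1bb was at 1240 CPM in the 36 neuron-like cells with shox and 98.8 CPM in the other 305.

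In cranial sensory neuron-like cells, the 10 genes with the largest ratio between the 123 cells with a shox2 UMI and the 163 without were hoxb6b, hoxb5b, auts2b, mab21l2, si:dkey-1c11.1, svila, ret, kirrel3a, ndnf and ptpn13. The cells with shox2 were deeper, with a median of 21930 UMIs against 17998. hoxb5b, a Hox gene of posterior head and trunk levels, was at 389 CPM in mutant, 355 in heterozygote and 205 in wild-type cells with shox2, against 50.2, 5.58 and 62.5 CPM in cells without. It was found in only 26 of 109 mutant, 18 of 89 heterozygote and 15 of 88 wild-type cells of the class. hoxb6b, its neighbour in the Hox cluster, was at 111 CPM with and 7.49 CPM without shox2 in the mutant library and at 117 and 0 CPM in the heterozygote library, but at 9.82 and 12.5 CPM in the wild-type library. hoxb6b was found in 17 mutant, 8 heterozygote and 8 wild-type cells. ret, the receptor of GDNF-family ligands, was likewise higher with shox2 in the mutant (92.7 against 16.5 CPM) and heterozygote cells (90.5 against 6.52 CPM) and not in wild-type cells (49.1 against 56.3 CPM). The 10 genes were picked by their ratio over these same libraries pooled, so being higher within a library is no separate support. The other 8 of the 10 genes were higher in the cells with shox2 in each library. Among them, mab21l2, a gene of eye and neural development, was at 539, 564 and 628 CPM with shox2, against 158, 54.0 and 220 CPM without, in mutant, heterozygote and wild-type cells. ndnf, a secreted neuron-derived factor, was at 254, 218 and 187 CPM with shox2, against 73.4, 51.2 and 92.5 CPM without.

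**Figure D3:**
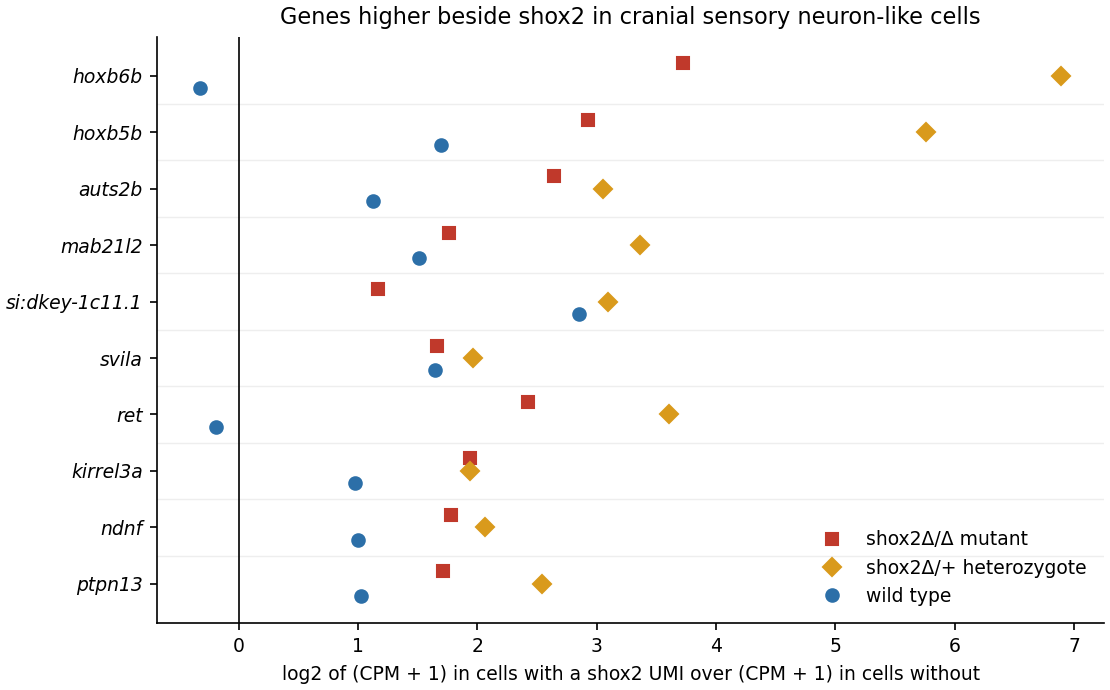
The 10 genes with the largest ratio beside shox2 in cranial sensory neuron-like cells (rows), each with the log2 of CPM + 1 in cells with a shox2 UMI over CPM + 1 in cells without, 1 point per library. The 10 were picked by their ratio over the same libraries pooled. Each of the 10 is above 0 in the mutant and heterozygote libraries, and hoxb6b and ret are below 0 in the wild-type library.

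Other ganglion genes of these cells were looked at after their values were seen. eya2, a placode gene, was at 473, 426 and 259 CPM in mutant, heterozygote and wild-type cells with shox2, against 178, 69.8 and 134 CPM in those without. tbx3a, a T-box gene whose mouse relative is tied to Shox2 in the heart, was at 522, 380 and 394 CPM with shox2, against 145, 77.3 and 221 CPM without. p2rx3a, an ion channel gene of trigeminal and other touch and pain neurons, went the other way, with 0, 0 and 4.91 CPM in mutant, heterozygote and wild-type cells with shox2, against 115, 369 and 514 CPM in those without. It was detected in only 7 of 109 mutant, 8 of 89 heterozygote and 6 of 88 wild-type cells.

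Beside shox in cranial sensory neuron-like cells, ret was at 110 CPM in mutant, 141 in heterozygote and 157 in wild-type cells with shox, against 18.9, 18.2 and 17.6 CPM in those without. hoxb1b and hoxb5b were also among the 10 genes with the largest ratio, with 67.9 and 435 CPM in the 63 cells with shox and 7.71 and 73.6 CPM in the 223 without, over the libraries pooled. mab21l2 and svila were on both lists as well.

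Otic vesicle-like cells, led by the otolith gene stm, held shox2 and no shox. shox2 had 4 UMIs in 236 mutant cells, 22 in 217 heterozygote cells and 29 in 314 wild-type cells, which is 0.787 (0.214 to 2.02), 4.74 (2.97 to 7.17) and 4.12 CPM (2.76 to 5.92). The mutant over wild type log2 ratio was -2.39 (-4.36 to -0.88), from 3 mutant and 17 wild-type cells. This ratio depends on the clustering. Leiden resolution 2, no regression and clustering without the heterozygote library put 677, 679 and 477 cells in the class. They gave no finite ratio, as the mutant or the wild-type library had no shox2 UMI left there. Of the otic vesicle-like cells counted above, 66 mutant, 59 heterozygote and 35 wild-type ones were shallow copies, and without them the levels were 0.803, 4.82 and 4.15 CPM. shox had 0 UMIs in each library, which allows levels of up to 0.590 CPM in the mutant, 0.646 in the heterozygote and 0.427 in the wild-type library (a floor of 3 UMIs). The otic cells with shox2 more often held neurogenic genes, which were chosen after their values were seen. neurod1, the bHLH factor of delaminating neuroblasts, was found in 30 of the 33 cells with shox2 (90.9%) and in 23.4% of the other 734, and elavl3, an RNA-binding protein of young neurons, in 81.8% and 19.3%. Without the 160 shallow copies, none of which held shox2, the shares in the other 574 cells were 26.5% for neurod1 and 22.8% for elavl3, at median depths of 26965 UMIs with and 23633.5 without shox2. neurod1 was at 3628 CPM in mutant, 1052 in heterozygote and 3900 in wild-type cells with shox2, against 174, 115 and 688 CPM in those without. stm was at 391, 2112 and 434 CPM in cells with shox2, against 3015, 2966 and 2398 CPM in those without.

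Inhibitory neuron-like cells were 2 clusters, of which cluster 24 held shox2 in each library and cluster 32 only in the heterozygote library. In cluster 24, led by foxn4, sst1.2 and vsx1, shox2 was at 8.69 CPM (3.97 to 16.5) in the mutant, 20.2 (13.5 to 29.0) in the heterozygote and 21.0 (14.4 to 29.6) in the wild-type library. Part of it came from cells with noradrenergic genes, picked after the values were seen. dbh, which encodes the enzyme that makes noradrenaline, was found in 5 of the 34 cells with shox2 and in 1.37% of the other 292, and hand2, a bHLH factor of sympathetic and noradrenergic cells, in 5 and in 1.71%. dbh was at 335 CPM in mutant, 236 in heterozygote and 224 in wild-type cells with shox2, against 3.25, 18.8 and 0 CPM in those without. The levels with shox2 came from only 2 mutant, 2 heterozygote and 1 wild-type cell with dbh. In cluster 32, led by otpa, otpb and en1b, shox2 had 0 UMIs in 27 mutant cells, 33 UMIs in 37 heterozygote cells (45.0 CPM, 31.0 to 63.2) and 0 UMIs in 97 wild-type cells.

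The heterozygote library held shox2 in many cells of classes where the other libraries had little or none. In neuroblast-like cells, which were 2 clusters, shox2 had 1 UMI in 294 mutant cells, 96 UMIs in 349 heterozygote cells and 4 UMIs in 503 wild-type cells. These are 0.184, 16.97 (13.7 to 20.7) and 0.464 CPM (0.126 to 1.19), and the heterozygote over wild type log2 ratio was 5.19 (3.79 to 7.10). A UMI was found in 1 mutant, 56 heterozygote (16.05%) and 3 wild-type cells. Of the 96 heterozygote UMIs, 89 lay in 50 cells of cluster 16 (27.1 CPM, 23.9% of cells) and 7 in 6 cells of cluster 19 (2.95 CPM, 4.29%). Cluster 16 was led by ccndx and neurod4, with dbx1a and neurog1 also among its 10 leading genes. Cluster 19 was led by ascl1a, with lbx1a and gsx1 also among its 10. The class name came from a list of otic and placodal neuroblast genes, of which 5 of 9 were raised in each cluster. It does not show that these cells arose from the otic placode. In dorsal hindbrain and rhombic lip-like cells, shox2 had 36 UMIs in the heterozygote library and none in the mutant and wild-type libraries, which makes the heterozygote level of 7.70 CPM at least 15.6-fold higher than the wild type at a floor of 3 UMIs per library (the exact interval of the log2 ratio starts at 3.59). In neural progenitor-like cells, 33 UMIs against 0 made it at least 20.4-fold higher at the same floor (from 3.97 on the log2 scale). In cranial motor neuron-like cells, 10 UMIs in 39 heterozygote cells stood against none in 30 mutant and 45 wild-type cells. In cluster 3, an unnamed cluster led by hemoglobin genes and the midbrain genes en2a and en2b, shox2 had 6 UMIs in the mutant, 89 in the heterozygote and 0 in the wild-type library. In cluster 6 it had 0, 41 and 1. In endothelium-like cells, the class taken to lack the gene, the level of the heterozygote library was 4.29 CPM (1.85 to 8.46). The levels in neural progenitor-like cells (4.66), otic vesicle-like cells (4.74), cluster 6 (5.36) and cluster 1 (3.99) lay within that interval. So did those in dorsal hindbrain and rhombic lip-like cells (7.70) and cluster 3 (7.71). That interval is wide and rests on 8 UMIs in 4 cells, so lying within it does not show a level to be background. The endothelium-like cells of the heterozygote library also held 4 shox UMIs in 3 cells. Shallow copies left out, 4 of 102 endothelium-like cells held shox2. Of dorsal hindbrain and rhombic lip-like cells, 9 of 50 with an EGFP UMI and 15 of 217 without did. The neurons of the heterozygote library were not the only cells with shox2, but most cells outside the neuron classes held a single UMI (212 of 284 cells), against 12 of 14 in the mutant and 28 of 38 in the wild-type library.

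The share of cells with a UMI differed between the classes of the heterozygote library. It was 16.05% in neuroblast-like cells (median depth 14751 UMIs), 8.05% in cluster 6 (16852 UMIs) and 7.55% in neural progenitor-like cells (19790 UMIs), against 3.81% in endothelium-like cells (17629 UMIs), 1.32% in neural crest-like cells (24369 UMIs) and 1.29% in head mesenchyme-like cells (19668.5 UMIs). In endothelium-like cells, 4 of 105 heterozygote cells held 8 shox2 UMIs, and no mutant or wild-type cell held any. The intervals of neuroblast-like cells (12.4 to 20.3%) and head mesenchyme-like cells (0.621 to 2.36%) do not overlap, and the neuroblast-like cells were the shallower ones. shox in the same neuroblast-like cells had 8 UMIs in the mutant, 2 in the heterozygote and 0 in the wild-type library.

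EGFP was also read by class. In the heterozygote library EGFP was at 6030 CPM in cranial motor neuron-like, 3948 in inhibitory neuron-like, 1916 in neuron-like, 1425 in cranial sensory neuron-like, 1083 in dorsal hindbrain and rhombic lip-like, 916 in neuroblast-like and 38.3 in otic vesicle-like cells. The order of the classes differed from that of shox2, which was at 15.6 CPM in cranial motor neuron-like and at 58.7 CPM in cranial sensory neuron-like cells. In the wild-type library EGFP was highest in cranial sensory neuron-like cells at 13359 CPM, followed by inhibitory neuron-like cells at 1925 CPM and otic vesicle-like cells at 968 CPM, with 88.2 CPM in cranial motor neuron-like cells. In the mutant library EGFP was at 3.65 CPM over all cells and at 2.55 CPM without the shallow copies. DsRed was at 0.549 CPM over all cells of the mutant, 2.21 of the heterozygote and 135 of the wild-type library.

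Within most classes of the heterozygote library, cells with EGFP held more shox2, shallow copies left out. The intervals with and without EGFP overlapped in inhibitory neuron-like, cranial motor neuron-like and neural progenitor-like cells and in cluster 6. In neuroblast-like cells shox2 was at 47.6 CPM (36.1 to 61.7) in the 60 cells with an EGFP UMI, of which 29 held shox2 (48.3%), and at 8.74 CPM in the 289 cells without, of which 27 did (9.34%). The median depth was 16668.5 and 14457 UMIs. In cluster 16 EGFP was in turn the gene with the largest ratio beside shox2, with 4409 CPM in the 50 heterozygote cells with shox2 and 314 CPM in the 159 without. In cluster 3, shox2 was at 22.7 CPM in cells with and 4.44 CPM in cells without EGFP, in neuron-like cells at 64.5 and 29.3 CPM, and in cranial sensory neuron-like cells at 91.1 and 44.1 CPM. The neuron-like levels came from only 7 of 32 cells with and 8 of 75 cells without EGFP. Cranial sensory neuron-like cells with EGFP were deeper, with a median of 28054 UMIs against 18464.5. In otic vesicle-like cells of the heterozygote library, 0 of the 22 shox2 UMIs lay in the 13 cells with EGFP (0 to 8.93 CPM) and 22 in the 145 cells without (3.32 to 8.02 CPM), and these intervals overlap. In cluster 1, which held 766 heterozygote and 14 wild-type cells, the levels were 3.23 CPM with and 4.12 CPM without EGFP.

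In the wild-type library, where EGFP is the neurod1 reporter, the relation differed from class to class. In otic vesicle-like cells, 27 of 29 shox2 UMIs lay in the 115 cells with EGFP (9.40 against 0.486 CPM). In neuron-like cells, shox2 was at 26.3 CPM (20.0 to 33.97) in the 112 cells with EGFP and at 141 CPM in the 50 cells without, and shox was at 18.1 and 159 CPM. The shox2 UMIs came from only 8 of the 112 cells and 10 of the 50, and those of shox from 7 and 13. In these few cells the pair was densest in the wild-type neuron-like cells without an EGFP UMI. Most shox2 of otic vesicle-like cells lay in those with one. All 86 wild-type cranial sensory neuron-like cells that were not shallow copies held EGFP.

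**Figure D4:**
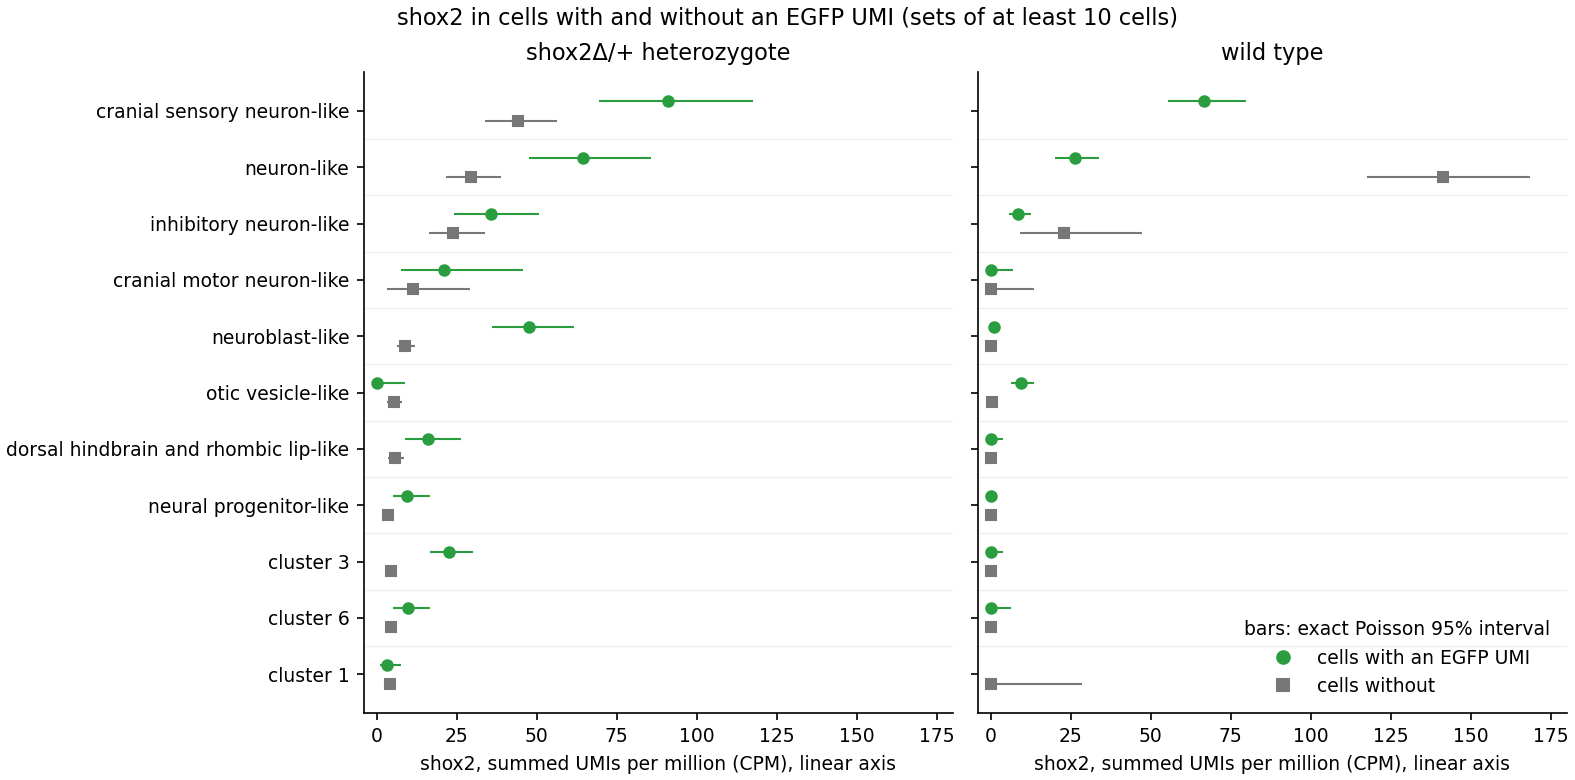
shox2, as CPM on a linear axis, in cells with (circles) and without an EGFP UMI (squares) of 11 classes or clusters, in the heterozygote (left) and the wild-type library (right), with exact Poisson 95% intervals and without shallow copies. Sets of at least 10 cells are drawn. In the heterozygote library cells with EGFP are above cells without in 9 of the 11 rows, in some with overlapping intervals. In wild-type neuron-like cells the order is the reverse.

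The other classes held little of either gene. Head mesenchyme-like cells had 1, 10 and 6 shox2 UMIs and 7, 8 and 10 shox UMIs in the mutant, heterozygote and wild-type libraries. All but 3 of the shox UMIs lay in cluster 5, led by aldh1a2, tcf21, pcolcea, rhag and gdf3. Its 10 leading genes also included gata5 and prrx1a, which stand on the marker list of lateral plate and fin bud mesoderm. In that cluster shox was at 1.14 CPM (0.456 to 2.34) in the mutant, 0.834 (0.306 to 1.82) in the heterozygote and 0.996 (0.455 to 1.89) in the wild-type library. In heart-like cells, shox2 had 0 UMIs in 31 mutant, 2 in 65 heterozygote and 4 in 56 wild-type cells, and these counts are too low to order the libraries.

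The genes whose levels ran most like shox2 across the 23 named classes, with the libraries pooled, were drgx, si:ch211-215d8.2, c1qtnf4, olfm1b, pcdh1a4, si:dkey-280e21.3, ppp1r1c, onecutl, atp6ap1lb and skor1a. Pearson's r of log2(CPM + 1) lay between 0.910 and 0.928, as a description over 23 points that share their libraries. Within single libraries r of these 10 genes was 0.75 to 0.92 in the mutant, 0.81 to 0.94 in the heterozygote and 0.71 to 0.86 in the wild-type library. With the mutant and wild-type libraries only, a choice made after the data were seen, 1 of the 10 remained among the 10 most alike. drgx, a paired-class homeobox gene of sensory neurons and their targets, was at 268 CPM in cranial sensory neuron-like and 261 CPM in neuron-like cells, against 49.96 and 41.5 CPM for shox2. skor1a, a transcriptional corepressor gene of dorsal interneurons in mouse, was at 47.0 and 65.8 CPM. For shox the 10 genes were BX548062.1, sult4a1, bcl2b, SLCO3A1, cdk5r2a, stmn3, khdrbs2, camkvb, nacad and necab2, with r between 0.939 and 0.981. Of these, 5 remained with the mutant and wild-type libraries only. At a minimum of 1000 UMIs only stmn3 (5443 UMIs) and necab2 (1315 UMIs) of the 10 could be compared, and both remained. shox stood at place 203 of 13825 genes by likeness to shox2 (r = 0.851), and shox2 at place 231 by likeness to shox. The gene levels are molecule counts from 3′ ends and were not scaled by length.

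Genes tied to Shox2 or SHOX in mouse or human were read from a list of 48 symbols, of which 46 were in the files. Over all cells, 35 had at least 50 UMIs in the mutant and wild-type libraries together. Of these, 2 were at least 2-fold higher and 3 at least 2-fold lower in the mutant, where 12.4% and 4.55% of all genes were. The median log2 ratio was 0.01, against 0.12 over all genes. Those named here were chosen after their values were seen. The lower ones were nppa and nppb, natriuretic peptide genes of the heart, and tbx5a, a T-box gene of heart and limb. nppb was at 0.381 CPM in the mutant, 0.457 in the heterozygote and 2.64 in the wild-type library, and tbx5a at 0.709, 1.21 and 1.74 CPM. The libraries held 31 mutant, 65 heterozygote and 56 wild-type heart-like cells, and the part of this in the result was not tested. Among the higher ones, tbx3b, a T-box gene, was at 0.984 CPM in the mutant, 0.584 in the heterozygote and 0.431 in the wild-type library.

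In cranial sensory neuron-like cells, 16 genes of that list could be compared. Between the mutant and the wild-type library, 0 were at least 2-fold higher and 1 at least 2-fold lower, where 4.9% and 2.26% of all genes were. It was ntrk3a, the receptor of neurotrophin-3, with 66.1 CPM in the mutant, 113 in the heterozygote and 210 in the wild-type library and a log2 ratio of -1.67 (-1.94 to -1.40) for mutant over wild type. It was found in 31 of 109 mutant, 18 of 89 heterozygote and 30 of 88 wild-type cells. tbx3a was at 318, 224 and 318 CPM and ret at 51.5, 47.1 and 52.3 CPM, and isl1, a LIM homeobox gene that mouse Shox2 is tied to, was at 238, 295 and 180 CPM.

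Of 34 cranial sensory ganglion genes compared in the same cells, 1 was at least 2-fold higher and 3 at least 2-fold lower in the mutant than in the wild-type library, where 4.9% and 2.26% of all genes were. The median log2 ratio of the list was -0.05, against 0.11 over all genes. prph, an intermediate filament gene of peripheral neurons, was at 30.8 CPM in the mutant, 73.6 in the heterozygote and 84.2 in the wild-type library. The others were the paired-class genes phox2a and phox2bb, factors of epibranchial neurons. phox2a was at 1.62 CPM in the mutant, 23.1 in the heterozygote and 46.8 in the wild-type library, but from only 3, 2 and 6 cells, with up to 50 UMIs in 1 cell. phox2bb was at 29.2, 7.69 and 12.1 CPM, from 5, 5 and 6 cells. Both are counts of a few neurons and not of the class.

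Of the paired-class homeobox genes, the wider family of the members, 35 could be compared over all cells of the mutant and wild-type libraries. In the mutant 8 were at least 2-fold higher and 2 at least 2-fold lower, where 12.4% and 4.55% of all genes were, and the median log2 ratio was 0.31, against 0.12 over all genes. The eye genes rx1 and rx3 had the largest ratios, a choice made after the values were seen, with 2.56 CPM of rx1 in the mutant, 6.66 in the heterozygote and 0.272 in the wild-type library. Eye-like cells numbered 81, 299 and 4 in these libraries, and their part in the result was not tested. Between the heterozygote and the wild-type library 11 of 37 were at least 2-fold higher and 4 lower, where 9.95% and 4.36% of all genes were.

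Most genes beside shox2 on chromosome 15 differed less between the libraries than shox2 did. By the order of genes in NCBI RefSeq's GRCz12tu assembly, rsrc1 follows shox2. That assembly is not the build the reads were aligned to and served for names and order only. rsrc1 overlaps with shox2 in that annotation, and whether the overlap affects the counts here was not tested. rsrc1 was at 12.3 CPM in the mutant, 15.3 in the heterozygote and 12.9 in the wild-type library. The heterozygote over wild type log2 ratio was 0.25 for rsrc1, -0.46 for dock10 and -0.11 for panx1a, against 1.04 for shox2. hephl1a had 1.48, with 40.5, 42.1 and 15.1 CPM in the mutant, heterozygote and wild-type libraries. Beside shox on chromosome 9, ppp2r3b was at 7.89, 8.18 and 7.38 CPM and asmtl at 7.15, 6.51 and 5.82 CPM. Other neighbours differed more than shox did: the mutant over wild type and heterozygote over wild type log2 ratios were 1.92 and 1.15 for si:ch211-218d20.15, -1.33 and -1.01 for slc25a6 (8, 12 and 27 UMIs) and 0.96 and 1.56 for grtp1b.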

How the data were processed

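Dissected tissue of pooled embryos was dissociated and made into 3′ single-cell libraries. The authors aligned the reads with Cell Ranger (4.0.0 per the file headers) to GRCz11 with EGFP and DsRed added, and deposited UMI counts per gene and cell, not normalized, for barcodes called as cells. Median depth of the kept cells was 17494 UMIs in the mutant, 16570 in the heterozygote and 19450 in the wild-type library, and the UMIs behind a value set its precision.

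Cells were filtered as in the study's methods and clustered together with scanpy 1.11.5 and leidenalg 0.10.2 (python 3.11.15): counts scaled to 10000, log-transformed, variable genes of mean 0.0125 to 3 and dispersion above 0.5, UMIs and mitochondrial percent regressed out, 40 principal components, 10 neighbors, resolution 1. shox2, shox, EGFP and DsRed took no part in choosing variable genes or names. A cluster took the name of the marker list with most genes among its 10 leading genes, if at least 3 markers and over 50% of the list were raised 2-fold (5 CPM added), a rule settled after the clusters were seen. Scrublet called 0 doublets in each library and so did not work. The 8% of cells with the highest scores were left out as an alternative.

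UMIs were summed per class and library, with exact Poisson intervals for CPM, exact conditional binomial intervals for ratios and Clopper-Pearson intervals for shares (scipy 1.17.1). Symbols on several rows were summed. In the fold calls of list genes and of all genes, and in the ratios beside a member, counts below 3 UMIs were set to 3. The genes named were the members and reporters, for each member the 10 most alike across classes (at least 200 UMIs), up to 8 list genes with the largest mutant over wild-type ratio past 2-fold in cranial sensory neuron-like cells (4 passed), and the 10 with the largest ratio beside shox2 in those cells (at least 50 CPM in either set). Other names were chosen after their values were seen. The members and lists were chosen with earlier results of these data known. The ratio calls were tested on simulated Poisson counts, which hold no spread between cells or libraries, so this checks the calculation only. Leaving out shallow copies, and the likeness without the heterozygote library, were chosen after seeing the data. Alternatives are given in the closing section. One list gene is not reported here.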

Additional observations from a re-analysis of the deposited data

Results flagged for a closer look

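shox2 had ratios of opposite sign in different classes under the same contrast. In neuroblast-like cells the log2 ratio of heterozygote over wild type was 5.19 (3.79 to 7.10), and in neuron-like cells it was -0.55 (-0.92 to -0.18). With 1 library per genotype the difference was not tested. The second ratio was -0.052 (-0.40 to 0.29) without the 8% of cells of highest doublet score, an interval that includes 0. In the heterozygote library EGFP was at 916 CPM in neuroblast-like and 1916 CPM in neuron-like cells, against 192 and 754 CPM in the wild-type library.

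DsRed appeared in the shallow copies of the mutant library at 86.8 CPM (66.5 to 111), against 0.0767 CPM in its other cells. The mutant embryos were not described as carrying that transgene, and the barcodes of these copies are deep in another library.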

How the results depend on the processing

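No paired analysis was possible because each genotype has 1 library and no test was made. Of 150 recomputed values, 114 stayed within the counting interval of the value reported (for counts, within 1.5 times), 36 did not, and 0 reversed a ratio whose interval excluded 0. Ratios that became infinite or undefined, because a library held no UMI of the gene, are not among the 150. Over all cells, none of the 24 recomputed ratios of shox2 and shox moved out of its interval. For shox, mutant over wild type was -0.34 (-0.62 to -0.06) with every deposited barcode. It was -0.30 (-0.59 to -0.02) with the libraries scaled by the median ratio over genes. Both intervals exclude 0, whereas that of the value reported, -0.16 (-0.45 to 0.13), includes 0. The classes were matched by clusters at least 50% of whose cells belonged to them. In cranial sensory neuron-like cells, the log2 ratio of shox2 for mutant over wild type was -0.56 at Leiden resolution 2, -0.55 with no regression and -0.59 without the heterozygote library. Heterozygote over wild type was 0.38 (0.04 to 0.73) at resolution 2 and 0.40 (0.05 to 0.75) with no regression. Both of these intervals exclude 0, whereas that of the value reported, -0.18 (-0.56 to 0.19), includes 0. For shox, mutant over wild type gave 0.24, 0.25 and 0.21 under the same 3 settings, and heterozygote over wild type 0.18 and 0.20. Scaled by the median ratio over genes, mutant over wild type for shox in these cells was -0.62 (-1.22 to -0.02). In otic vesicle-like cells heterozygote over wild type for shox2 was 1.54 (-0.30 to 3.69) at resolution 2 and 1.54 (-0.31 to 3.69) with no regression. At the settings used for the report it was 0.20 (-0.67 to 1.05). Mutant over wild type for shox2 in that class had no finite value at resolution 2, with no regression and without the heterozygote library. Without the 8% highest Scrublet scores, heterozygote over wild type was -0.052 for shox2 and -0.26 for shox in neuron-like cells, and 7.46 for shox2 in neuroblast-like cells. At resolution 0.5 and without the heterozygote library no cluster matched the neuron-like cells. The cause of these moves was not tested. Shares of cells rose with depth: for shox2 in cranial sensory neuron-like cells thinned to 5000 UMIs they were 16.7% (mutant), 24.7% (heterozygote) and 24.7% (wild type), and unthinned 33.9%, 43.8% and 53.4% in mutant, heterozygote and wild type, with 11.1% for wild-type neuron-like cells. For shox in cranial sensory neuron-like cells they were 22.9%, 21.3% and 21.6% unthinned. At a fold of 1.5, mutant over wild type, 13 of 35 genes tied to Shox2 and 14 of 42 ganglion genes passed over all cells, against 5 and 1. In cranial sensory neuron-like cells 5 of 16 and 11 of 34 passed, against 1 and 4. At a minimum of 200 UMIs, 0 of 38 ganglion genes passed over all cells. In cranial sensory neuron-like cells 2 of 28 ganglion genes and 0 of 1 paired-class gene passed. The shares of all genes past these settings are not given here, so these counts are not read as a change in the lists. Of the 10 genes most like shox2 and shox, 6 and 6 remained with a pseudocount of 5 CPM. With the mutant and wild-type libraries only, a setting chosen after seeing the data, 1 and 5 remained. At a minimum of 1000 UMIs 7 and 2 remained. The others of each 10 lay below that minimum and could not remain, so this setting does not check the likeness. Low counts limit every class value: the mutant level in neuron-like cells rests on 5 cells.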
